A study of Gallus gallus with 2 samples.

Results

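Chromosome 5 of the chicken carried 1378 of the 21993 newly listed long non-coding RNA (lncRNA) transcripts of breast muscle, or 6.27%. All rows placed on chromosome 5 itself were taken, and 4 further transcripts on scaffolds assigned to it were left out. The choice used position alone and no measured value. Hens aged 7 weeks from 2 strains were compared. The labels call White Recessive Rock (WRR) fast-growing, and Xing Hua (XH), a native strain from China, slow-growing. The labels give body weights of 625.3 ± 12.0 g for WRR and 328.5 ± 10.6 g for XH, with the kind of error unnamed. Breast muscle RNA of 4 hens per strain was pooled in equal amounts, depleted of ribosomal RNA and made into 1 strand-marked library per strain. No genotype, treatment or transgene is given in the labels. Hens of both strains shared a space and a diet but not their cages. With 1 pooled library per strain, no spread between birds could be estimated and no p-value is given, so every difference below is one between 2 libraries. The defining genes of muscle could not be checked, because the table lists lncRNAs only.

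An lncRNA is a long transcript that is not translated into protein. Some lncRNAs act on genes beside them, some bind proteins or microRNAs, and in mouse and human several are known to take part in the differentiation of myoblasts. In the RefSeq annotation of a later assembly (GRCg7b), chicken chromosome 5 also carries MYOD1, a transcription factor that commits cells to the muscle lineage, TNNI2 and TNNT3, the fast skeletal muscle troponins I and T, LDHA, a subunit of lactate dehydrogenase, and the growth factor gene IGF2. The table gives positions on the older assembly galGal4, so no transcript was paired with a neighbouring gene and each is named by its position (chromosome 5, start and end counted from 1).

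The chromosome 5 transcripts were short and of low abundance, like those of the whole table. Their length ran from 201 to 14983 bases, with a median of 860 and quartiles of 606 and 1318. The level of a transcript is given in RPKM, the reads on each kilobase of a transcript per M reads of its library. Reads on all listed transcripts made up 19.5% of the WRR total and 24.4% of the XH total in the table's header. With a dash in the table taken as 0 reads, the median level was 2.67 RPKM in WRR (quartiles 1.26 and 4.84) and 4.30 RPKM in XH (2.88 and 6.92). In WRR 117 transcripts stood at 10 RPKM or more and 5 at 100 RPKM or more, and in XH 226 and 2. Over the table the medians were 844 bases, 2.65 RPKM in WRR and 4.48 RPKM in XH. Of its 21993 transcripts, 2454 in WRR and 4551 in XH stood at 10 RPKM or more. The median chromosome 5 transcript had 21 reads in WRR and 27 in XH, beside 21 and 28 over the table. Most ratios of single transcripts are therefore known only roughly.

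In WRR, 79756 reads fell on chromosome 5 transcripts, 4.32% of the 1846031 listed reads (exact 95% interval 4.29 to 4.35%). XH had 110621 of 1883727 there, or 5.87% (5.84 to 5.91%). Per M reads of the library this was 8446 in WRR and 14339 in XH, 1.70-fold higher in XH (1.68 to 1.71). Intervals of read counts here and below are exact binomial ones (Clopper-Pearson). They cover the error of counting alone and leave out that between birds or preparations. Reads without molecular identifiers are also not independent molecules. The 10 most read transcripts of each library held 25.3% of its chromosome 5 reads in WRR and 27.8% in XH, and the 100 most read held 56.8% and 57.6%. The reads were thus about equally concentrated in both libraries on this chromosome.

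Along the 59580361 bp of the chromosome the transcripts were placed unevenly. There were 23.1 per Mb, against 17.6 per Mb on chromosome 4 and 26.8 per Mb on chromosome 7, which are used for comparison below, and 21.5 per Mb over the 28 numbered chromosomes. Their intervals covered 3.18% of chromosome 5, against 2.91% of chromosome 4 and 4.80% of chromosome 7. In 60 bins of 1 Mb the number of transcripts ran from 0 to 106, with a median of 20 and quartiles of 9 and 28.2. The 10 fullest bins held 566 transcripts, or 41.1%. The fullest lay at 34 to 35 Mb, with 106 transcripts, followed by 26 to 27 Mb with 73 and 11 to 12 Mb with 68.

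Other parts of the chromosome were empty or nearly so. The bins at 19 to 20 Mb and 46 to 47 Mb held no listed transcript, and that at 39 to 40 Mb held 1, of 5336 bases, at 2.96 RPKM in WRR against 9.47 RPKM in XH. The widest stretch without a listed transcript ran from 45791250 to 47921537, over 2130 kb. The next ones ran from 18793384 to 20748585, over 1955 kb, and from 56352040 to 57655795, over 1304 kb. Most transcripts had a close neighbour. Of 1377 pairs of consecutive transcripts, 78 overlapped, 539 more were under 1 kb apart and 150 were at least 100 kb apart, with a median distance of 1512 bases. Chained at up to 5 kb, a distance chosen after the data had been seen, 1136 of the transcripts fell into 263 groups, and 242 stood alone. The 21 groups of at least 10 members held 308 transcripts.

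**Figure D1:**
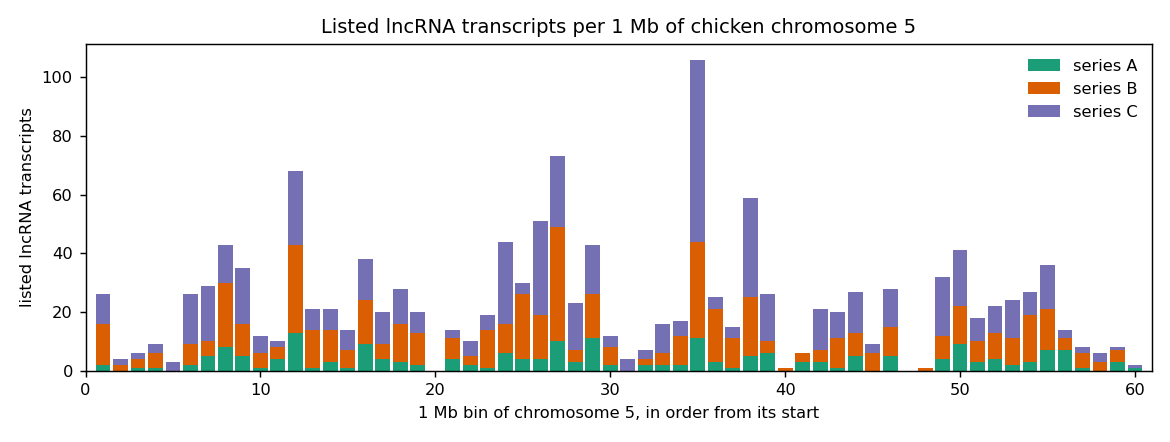
Number of listed lncRNA transcripts in each 1 Mb bin of chromosome 5, in order from the chromosome's start, stacked by numbering series (A, B and C, explained in the text). The highest bar is the bin of 34 to 35 Mb with 106 transcripts, and 2 bins are empty.

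The main comparison was that of each transcript's level between the fast-growing and the slow-growing pool. It used log2((WRR + 0.1) / (XH + 0.1)) of RPKM, which is positive where WRR is higher and understates the change of low transcripts. Folds printed for single transcripts are RPKM ratios without the added 0.1. In pooled tissue, fewer cells of a type and less RNA per cell cannot be told apart. Of the 1378 transcripts, 1352 had at least 0.5 RPKM in the higher library and were compared. Of these, 604 (44.7%) were at least 2-fold higher in XH, beside 46.9% of all 21625 compared transcripts of the table. Another 115 (8.51%) were at least 2-fold higher in WRR, beside 9.45% over the table, and 633 lay within 2-fold. The shares on chromosome 5 thus lay close to the background in both directions. For 581 of the 604 and 89 of the 115, the exact interval of the read ratio left out 1. Over the table, transcripts that pass both this and the 2-fold limit made up 44.9% towards XH and 7.64% towards WRR.

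The median log2 ratio of chromosome 5 was -0.86 (95% interval from order statistics -0.93 to -0.79), with quartiles of -1.60 and -0.043. Over the whole table the median was -0.92 (-0.93 to -0.89), on chromosome 4 it was -1.08 (-1.14 to -1.01), and on chromosome 7 its interval was -1.09 to -0.91. Transcripts are not replicates, and these intervals describe the transcripts of 2 libraries. Relative to the table's median, the chromosome 5 median was 0.057, that of chromosome 4 was -0.17 and that of chromosome 7 was -0.088. On this centred scale 299 chromosome 5 transcripts were past 2-fold towards WRR and 250 towards XH, so that WRR took 54.5% of the transcripts past 2-fold in place of 16.0%. Of the table's 21625 compared transcripts, the same scale put 4813 past 2-fold towards WRR and 4396 towards XH. Scaled to the listed reads, the chromosome 5 numbers were 154 and 457, and the share of WRR was 25.2%. The table's numbers on that scale were 2808 and 7885. Centring sets the table's median to 0 by construction, while scaling to the listed reads kept a smaller excess towards XH. The size of the excess towards XH on chromosome 5, and whether there was one, therefore depended on the scaling.

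The direction of a chromosome 5 transcript went with its serial number in the table. Numbers up to 3658 (series A) stand in no order of position, whereas numbers from there to 11941 (series B) and those above 11941 (series C) each run along the chromosomes. On chromosome 5 the serial number and the start had a Spearman correlation of -0.17 over the 205 transcripts of series A, 0.97 over the 552 of series B and 0.99 over the 621 of series C. The median log2 ratio of series A was -0.58 (-0.72 to -0.49), with 10 of 204 compared transcripts past 2-fold towards WRR and 60 towards XH. That of series B was -0.094 (-0.20 to 0.018), with 101 and 87 of 542. That of series C was -1.61 (-1.71 to -1.54), with 4 and 457 of 606. Over the whole table, 5.15% of series A, 23.6% of series B and 0.764% of series C were past 2-fold towards WRR, and 26.6%, 15.9% and 76.1% towards XH. On chromosome 5 the same shares were 4.90%, 18.6% and 0.660%, and 29.4%, 16.1% and 75.4%, so the pattern over the series is that of the table. Of the 115 transcripts past 2-fold towards WRR, 101 thus had a number of series B, and of the 604 towards XH, 457 had one of series C. The sources used here do not say how the numbers were given out, and whether levels in either library entered into that was not tested.

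Series composition set chromosome 5 apart from the table only slightly. Series A, B and C made up 14.9%, 40.1% and 45.1% of chromosome 5 transcripts, against 16.6%, 35.1% and 48.3% over the table. Within the series, the table's medians were -0.56, 0.057 and -1.64. The table's median lay inside the chromosome 5 interval for series A and C and above it for series B, although the pooled median of chromosome 5 was the higher one. The levels in both libraries were related more closely within a series than over all. Across the 1352 transcripts, which are not replicates and share 2 libraries, Pearson's r of log2 RPKM was 0.51 and Spearman's rho was 0.50. Within series A, B and C, r was 0.76, 0.71 and 0.61 and rho was 0.59, 0.69 and 0.52. The same r was 0.60 on chromosome 4, 0.54 on chromosome 7 and 0.57 over the table.

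**Figure D2:**
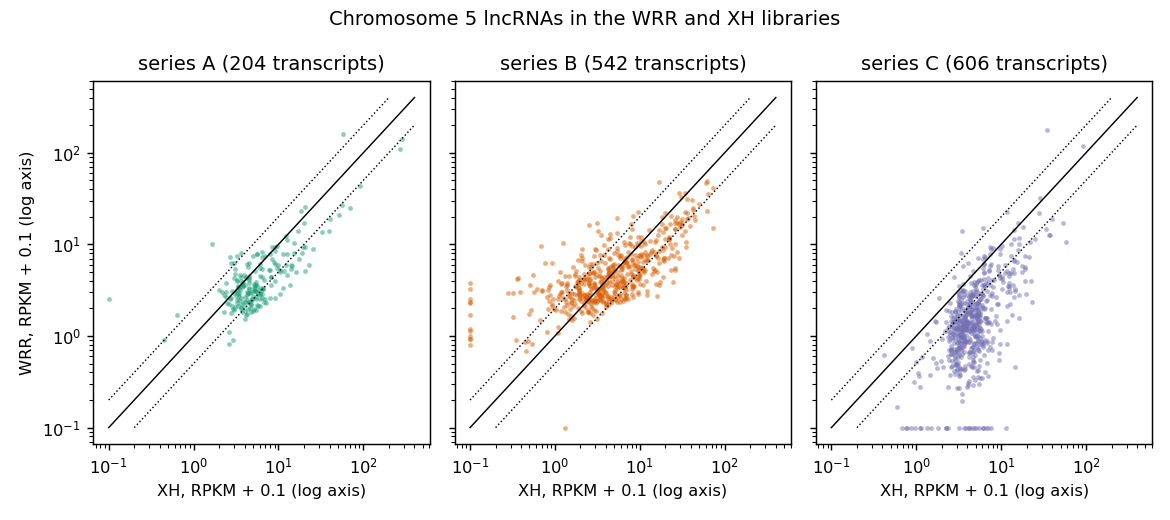
RPKM + 0.1 of each compared chromosome 5 transcript in XH (x) and WRR (y), both on log axes, with 1 panel per numbering series; the solid line marks equal levels and the dotted lines 2-fold differences. Points of series B lie on both sides of equality, while 457 of the 606 points of series C lie at least 2-fold towards XH.

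Along the chromosome the ratio had no steady trend. Across the compared transcripts, the correlation of position with the log2 ratio was -0.051 (Pearson) and -0.064 (Spearman), a description over 1352 transcripts of the same 2 libraries. By segments of 10 Mb the medians were -0.93 from 0 to 10 Mb, -0.63 from 10 to 20 Mb, -0.67 from 20 to 30 Mb, -0.88 from 30 to 40 Mb, -1.28 from 40 to 50 Mb and -0.82 from 50 to 60 Mb. The segment from 40 to 50 Mb was the lowest. Its interval was -1.43 to -1.14. Of its 185 compared transcripts, 16 (8.65%) were past 2-fold towards WRR and 115 (62.2%) towards XH. Over the table these shares were 9.45% and 46.9%. The segment was also the lowest of the 6 in series A, B and C, with medians of -1.03, -0.45 and -1.88. Relative to all transcripts its median was -0.36, while that of 10 to 20 Mb was 0.29 and that of 20 to 30 Mb was 0.25.

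In the first 10 Mb, 23 of the 70 compared transcripts of series B (32.9%) were past 2-fold towards WRR and 10 (14.3%) towards XH, beside 23.6% and 15.9% of series B over the table. Their median was 0.28 (-0.15 to 0.75), beside 0.057 over the table. Of these 70 transcripts, 10 belong to a single group of 14 neighbours at 7447835 to 7465309, described below. In that group 8 of the 14 members were past 2-fold towards WRR, and close entries may be parts of 1 RNA. The segment's share without that group was not computed. The other segments had negative medians in series B, from -0.031 to -0.45. The median of the whole first segment was -0.93, and 91 of its 186 compared transcripts were of series C, with a median of -1.79.

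Of 52 bins of 1 Mb with at least 5 compared transcripts, 3 had a median log2 ratio above 0 and 20 had one of -1 or below. The bin medians ran from -2.02 to 0.50, with a standard deviation of 0.53 over bins. The 3 bins above 0 lay at 58 to 59 Mb (0.50, 8 transcripts), 44 to 45 Mb (0.31, 9 transcripts) and 22 to 23 Mb (0.20, 19 transcripts). The interval of each included 0, so none stood above 0 beyond the scatter of its own transcripts. The upper bound of the interval was below 0 for 25 of the 52 bins. The lowest medians were -2.02 at 9 to 10 Mb (12 transcripts), -1.64 at 27 to 28 Mb (23 transcripts) and -1.61 at 48 to 49 Mb (32 transcripts). Of these, the interval at 9 to 10 Mb, -4.98 to 0.19, included 0.

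The bins differed in series, and their medians moved with it. The share of series C ran from 0 to 69.6% over the 52 bins, and its correlation with the bin median was -0.59 (Pearson) and -0.63 (Spearman), a description over bins that share the libraries. With each transcript centred on the median of its own series over the table, 22 of the 52 bins were above 0, the range was -1.05 to 0.80 and the standard deviation was 0.42. The bin at 27 to 28 Mb, where 69.6% of transcripts were of series C, then had a median of -0.039, while that at 9 to 10 Mb remained the lowest at -1.05. The fullest bin, 34 to 35 Mb, had a median of -1.25 (-1.44 to -0.95). Of its 101 compared transcripts, 3 were past 2-fold towards WRR and 57 towards XH. Centred on series, its median was -0.13. The second fullest, 26 to 27 Mb, had a median of -0.049 (-0.44 to 0.34), with 11 and 19 of 73. Over the table, 9.45% of compared transcripts were past 2-fold towards WRR and 46.9% towards XH.

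**Figure D3:**
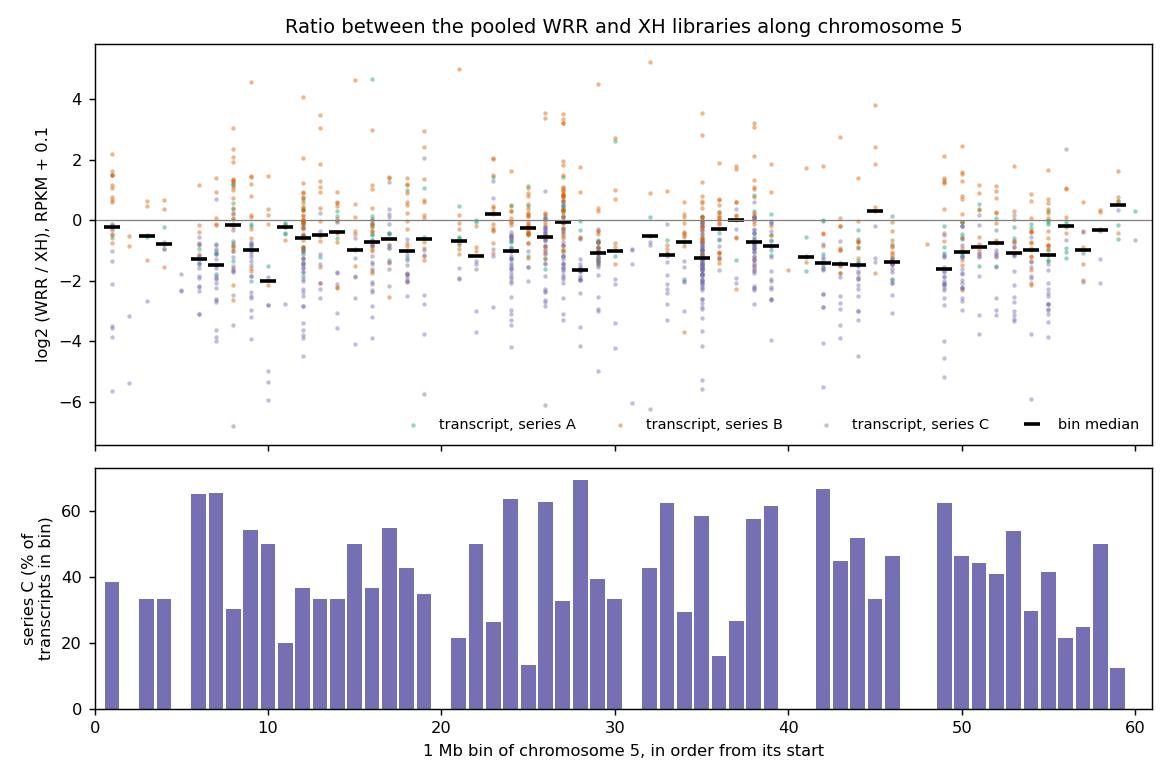
Upper panel: log2 ratio of WRR over XH (RPKM + 0.1) of each compared transcript, by 1 Mb bin in order from the chromosome's start, coloured by series, with the median of bins of at least 5 transcripts as a black dash. Lower panel: percent of each such bin's transcripts that are of series C; of the 52 bin medians, 3 lie above 0.

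By summed level, the bin at 23 to 24 Mb led in both libraries, with a sum over its 44 transcripts of 348 RPKM in WRR and 729 RPKM in XH. It held 14.0% of the chromosome 5 reads in WRR and 18.0% in XH. The sum was higher in WRR in 5 of the 58 bins with transcripts. One of these was the first bin, 0 to 1 Mb, where the sum was 308 RPKM in WRR against 211 RPKM in XH. A single transcript there, at chromosome 5, 710021 to 710892, gave 162 of the 308 RPKM.

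The 2 transcripts of highest mean level lay side by side in the bin at 23 to 24 Mb. The 5538-base transcript at 23843649 to 23850065 drew 5741 reads (110 RPKM) in WRR against 11484 reads (269 RPKM) in XH. It was 2.45-fold higher in XH (2.37 to 2.53), and its interval spans 6417 bp. The 3180-base transcript at 23850256 to 23853435 drew 4261 reads (142 RPKM) in WRR against 6943 reads (283 RPKM) in XH, so that XH was 1.99-fold higher (1.92 to 2.07). The intervals of the folds do not overlap, so the adjacent entries differed in ratio beyond counting error. Both were read over at least 99.8% of their length in each library. No other listed transcript lay within 30 kb of the pair. The pair held 12.5% of the chromosome 5 reads in WRR and 16.7% in XH, and without it the summed reads were 1.62-fold higher in XH (1.60 to 1.63).

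Of the 8 transcripts of highest mean level, 3 were higher in WRR. The 872-base transcript at 710021 to 710892 was at 162 RPKM in WRR against 57.8 RPKM in XH, giving a ratio of 2.80 (2.50 to 3.14). The 219-base transcript at 55426292 to 55426510 was at 177 RPKM in WRR against 34.9 RPKM in XH, giving a ratio of 5.08 (3.85 to 6.81). It was the highest level of chromosome 5 in WRR, and it is one of only 4 transcripts of series C on the chromosome that were at least 2-fold higher in WRR. The 1432-base transcript at 16223484 to 16224915, also of series C, was at 119 RPKM in WRR against 92.0 RPKM in XH, giving a ratio of 1.29 (1.19 to 1.40). Relative to the table's median, their log2 values were 2.40, 3.26 and 1.28.

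The remaining 3 of the 8 were higher in XH. The 513-base transcript at 56253694 to 56254206 was at 42.7 RPKM in WRR against 91.2 RPKM in XH, so that XH was 2.13-fold higher (1.79 to 2.54). The transcript at 25275289 to 25277332 had 40.6 and 73.6 RPKM, 1.81-fold higher in XH (1.65 to 1.99), and that at 22152290 to 22152673 had 48.8 and 62.4 RPKM, 1.28-fold higher in XH (1.04 to 1.58). Relative to the table's median the last pair turned direction, to log2 values of 0.059 and 0.56.

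**Figure D4:**
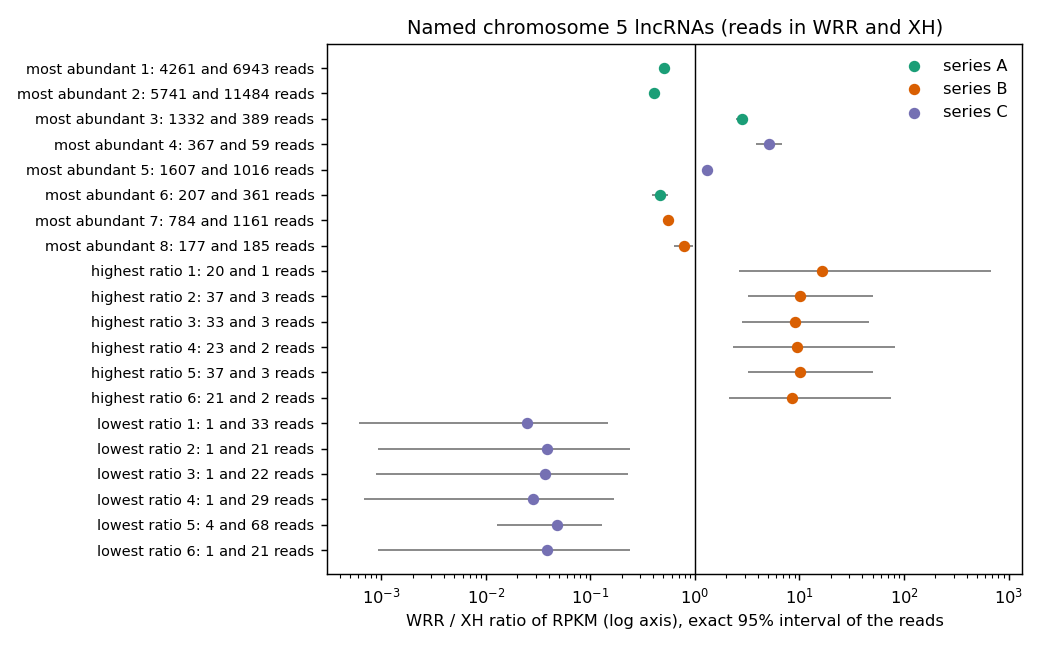
Ratio of WRR over XH of 20 chromosome 5 transcripts on a log axis with its exact 95% interval, coloured by series; labels give the reads in WRR and XH. The 8 most abundant have narrow intervals, while the 6 highest and 6 lowest ratios, each with 1 to 4 reads in the lower library, span wide ones.

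Among transcripts with at least 20 reads in the higher library and at least 1 in the other, the 6 highest ratios were 8.58 to 16.3, all of series B. The 222-base transcript at 44679810 to 44680031 drew 20 reads (9.54 RPKM) in WRR against 1 read (0.584 RPKM) in XH, for a ratio of 16.3 (2.61 to 677). The 858-base transcript at 37494967 to 37495824 drew 37 reads (4.57 RPKM) in WRR against 3 reads (0.453 RPKM) in XH, a ratio of 10.1 (3.19 to 51.1). Coverage of its length was 99.3% in WRR against 18.4% in XH. The transcript at 18728617 to 18729969 had the same read counts over 1353 bases, and so the same ratio. The transcripts at 12813512 to 12813907, at 7454589 to 7454932 and at 34322481 to 34323113 had ratios of 9.40 (2.32 to 82.2), 8.99 (2.82 to 45.8) and 8.58 (2.10 to 75.5). These 6 were picked as the highest of 1056 such transcripts. Their lower bounds, at about 2 to 3, do not allow for that choice.

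The 6 lowest ratios were all of series C and reached further. The 299-base transcript at 28546706 to 28547004 drew 1 read (0.354 RPKM) in WRR against 33 reads (14.3 RPKM) in XH, so that XH was 40.4-fold higher (6.76 to 1643). The 1672-base transcript at 8213762 to 8215433 drew 4 reads (0.253 RPKM) in WRR against 68 reads (5.27 RPKM) in XH, so that XH was 20.8-fold higher (7.76 to 78.6). That is the highest lower bound of the 6. The other 4, at 27408176 to 27409290, 23384721 to 23385256, 29330509 to 29330908 and 15531514 to 15532318, had 1 read in WRR and 21 to 29 reads in XH. Their folds towards XH were 25.7 to 35.5, with lower bounds of 4.13 to 5.89. All 6 were picked as the lowest of the same 1056 transcripts, and their bounds do not allow for that either.

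A dash, taken as 0 reads, stood in WRR for 35 chromosome 5 transcripts (2.54%, against 2.47% over the table) and in XH for 21 (1.52%, against 1.35%). Of those in WRR, 31 were of series C, and of those in XH, 16 were of series B. None stood against many reads, since the highest count in the other library was 39 in XH and 31 in WRR. The transcript at 7664239 to 7665822 drew 39 reads (11.2 RPKM) in XH, spread over 85.1% of its length. With the dash set to a floor of 3 reads it was 15.9-fold higher in XH. Lower bounds in this paragraph are exact ones with the dash kept at 0 reads, so they do not bound the floored folds. For this transcript the bound was 12.3. On that floor, the transcripts at 30767486 to 30768001 and 34563674 to 34564398, each with 26 reads in XH, were 10.6-fold higher there (lower bound 8.03). In the other direction, the transcript at 20862730 to 20870420 had 31 reads (3.14 RPKM) in WRR, with 29.2% of its length read. On the same floor it was 8.44-fold higher in WRR (lower bound 6.47). The transcripts at 15525145 to 15526147 and 26945804 to 26948012 drew 23 and 19 WRR reads. The floor puts them 6.26-fold and 5.17-fold higher in that library (lower bounds 4.70 and 3.81).

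Ratios of neighbouring transcripts were positively correlated where the transcripts did not overlap and lay less than 100 kb apart. Pairs further apart, which had a negative correlation, are described under the other observations. Over 534 pairs of consecutive compared transcripts under 1 kb apart, Pearson's r of the log2 ratio was 0.42 and the median absolute difference was 0.70. At 1 to below 10 kb r was 0.30 over 336 pairs, and at 10 to below 100 kb it was 0.14 over 275 pairs. The 56 pairs counted as overlapping, in which the second transcript began before the end of an earlier one, differed from this. Their r was -0.11, their rho was -0.17 and their median absolute difference was 2.10. Of these pairs 14.3% were of the same series, and after centring within the series r was 0.24. These are descriptions, as the pairs share transcripts and libraries and close entries may be parts of 1 RNA. Pairs under 1 kb apart were of the same series in 58.8% of cases, against 40.0% at 10 to below 100 kb. After centring within the series, r was 0.43 under 1 kb, 0.19 at 1 to below 10 kb and 0.16 at 10 to below 100 kb. On the other numbered chromosomes the values before centring were 0.38, 0.32 and 0.16 in the same order of distance, and -0.099 for overlapping pairs.

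The longest run of consecutive compared transcripts higher in WRR had 14 members, from 7452693 to 7543768, with a median log2 ratio of 1.13. Of these, 9 were at least 2-fold higher in WRR, beside 9.45% of all compared transcripts of the table. By definition a run holds 1 sign only, so these 2 values are not alike. On chromosome 5, 320 compared transcripts had a positive log2 ratio and 1032 a negative one. Of the 320 positive ones, 115 were at least 2-fold higher in WRR. The positive share was 23.7%, beside 23.9% over the table. Of the 14 members of the run, 4 were of series A and 10 of series B. A group of 14 transcripts within 17.5 kb, from 7447835 to 7465309, made up most of it. In that group the levels ran from 2.21 to 16.7 RPKM in WRR (median 9.58) and from 1.13 to 10.3 RPKM in XH (median 4.62). Its summed reads were 765 in WRR against 368 in XH, a ratio of 1.70 (1.50 to 1.93). Of the 14, 8 were past 2-fold towards WRR and none towards XH, beside 9.45% and 46.9% over the table. Not all members differed to the same degree. The 452-base transcript at 7459684 to 7460135 was at 13.8 RPKM in WRR against 3.15 RPKM in XH, giving a ratio of 4.38 (2.28 to 9.25). The 341-base transcript at 7464328 to 7464668, about 4 kb further on, was at 10.9 RPKM in WRR against 10.3 RPKM in XH, giving a ratio of 1.06 (0.62 to 1.82).

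The longest run higher in XH had 37 members, from 27620931 to 28577801, with a median log2 ratio of -1.23. Of these, 26 were at least 2-fold higher in XH, beside 46.9% of all compared transcripts of the table. This run holds negative log2 ratios only, so these 2 values are not alike either. Of the 1032 negative transcripts of chromosome 5, 604 were at least 2-fold higher in XH. The run held 8 transcripts of series A, 11 of series B and 18 of series C. Part of it belonged to the largest group of the chromosome, 33 transcripts within 57.4 kb from 28537355 to 28594763. The median level in that group was 5.44 RPKM in WRR against 11.6 RPKM in XH. Its summed reads were 1184 in WRR against 2106 in XH, a ratio of 0.46 (0.43 to 0.49), with 20 of the 33 at least 2-fold higher in XH and 1 in WRR. Members of series A and most members of series B also lay towards XH. The 2910-base transcript at 28581186 to 28584095, of series A, was at 4.48 RPKM in WRR against 12.6 RPKM in XH, so that XH was 2.81-fold higher (2.26 to 3.50). The 1607-base transcript at 28585878 to 28587484, of series B, had 5.47 and 10.4 RPKM, 1.90-fold higher in XH (1.43 to 2.54). The series B members at 28577941 to 28578505 and 28580709 to 28580980 were higher in WRR. Their ratios were 1.32 (0.71 to 2.52) and 1.23 (0.56 to 2.79). The last member, at 28594177 to 28594763 and also of series B, likewise went the other way, with 12 reads in WRR and a dash in XH. It overlaps the member before it, which had 7 reads in WRR and 10 in XH. Relative to the table's median the group's median was -0.17, with 3 members at least 2-fold to each side. On that scale 4813 of the table's 21625 compared transcripts were past 2-fold towards WRR and 4396 towards XH.

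The second largest group, 28 transcripts within 54.9 kb from 26909267 to 26964180, lay towards WRR. Its summed reads were 2205 in WRR against 1448 in XH, a ratio of 1.24 (1.16 to 1.33), and its median log2 ratio was 0.44. Of the 28, 8 were past 2-fold towards WRR, beside 9.45% over the table, and 3 towards XH, beside 46.9%. The 1532-base transcript at 26943354 to 26944885 was at 8.57 RPKM in WRR against 2.96 RPKM in XH, giving a ratio of 2.89 (1.98 to 4.34). The longest member, 7003 bases at 26927189 to 26934191, had 7.20 and 6.31 RPKM, a ratio of 1.14 (0.99 to 1.31). All 3 members towards XH were of series C, and 19 of the 28 were of series B. Relative to the table's median, the group had a median of 1.36, with 20 members past 2-fold towards WRR and 2 towards XH. Of the table's 21625 compared transcripts, 4813 and 4396 were so on that scale. All 3 groups were singled out after their values had been seen.

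**Figure D5:**
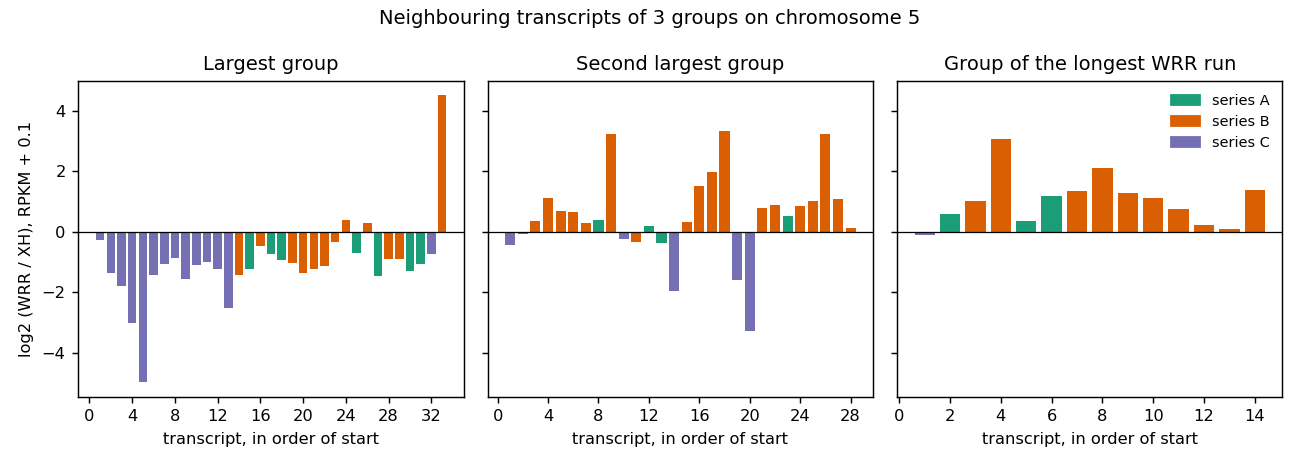
Log2 ratio of WRR over XH (RPKM + 0.1) of the compared members of 3 groups of neighbouring transcripts, in order of start and coloured by series. In the group of 33 transcripts 20 bars reach -1 or below, while in the group of 14 transcripts 8 bars reach 1 or above and none reaches -1.

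The longest transcripts of the chromosome were read in both libraries. The transcript at 25794212 to 25809194, of 14983 bases, was at 11.6 RPKM in WRR against 16.3 RPKM in XH, so that XH was 1.40-fold higher (1.31 to 1.49). The 10042-base transcript at 15890082 to 15900123 had 3.80 and 5.36 RPKM, 1.41-fold higher in XH (1.22 to 1.63). That at 45260593 to 45269348, of 8756 bases, had 13.5 and 32.6 RPKM, 2.40-fold higher in XH (2.24 to 2.58). The first 2 turned direction relative to the table's median, to log2 values of 0.44 and 0.43, and the third did not. By length, the median log2 ratio was -0.85 under 500 bases, -0.94 from 500 to below 1000, -0.82 from 1000 to below 2000 and -0.77 from 2000 bases on. The share past 2-fold towards WRR fell along these classes, from 18.5% (40 of 216) through 8.91% and 4.21% to 3.33% (5 of 150). Over the table it was 14.5%, 10.9%, 6.26% and 2.23% in the same order, so all listed transcripts showed the same decline. Towards XH the chromosome 5 shares were 46.3%, 48.0%, 41.3% and 37.3%, beside 48.5%, 49.0%, 44.3% and 42.1% over the table. Within series B the medians were 0.53 (0.15 to 0.93) under 500 bases, -0.12 (-0.26 to -0.016) from 500 to below 2000 and -0.50 (-0.85 to -0.19) from 2000 on. Those of series C went the other way, at -1.82 (-2.26 to -1.45), -1.62 (-1.71 to -1.54) and -1.18 (-1.60 to -0.996). The first and last of these intervals overlap. Series A had medians of -0.46 (3 transcripts), -0.59 and -0.56, so the fall with length was not shared by all series.

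The interval was longer than the transcript for 40 chromosome 5 transcripts, here called gapped. Their median log2 ratio was -0.19 (-0.66 to 0.25), with 9 (22.5%) past 2-fold towards WRR and 11 (27.5%) towards XH. Over all compared transcripts of the table the shares were 9.45% and 46.9%. For the other transcripts of chromosome 5 the median was -0.88 (-0.94 to -0.81). Series A, B and C made up 7.5%, 57.5% and 35% of the gapped transcripts, against 15.1%, 39.5% and 45.4% of the others. Whether the difference goes beyond that in series was not tested, and gapped transcripts of the whole table were not summarized. The widest interval, 103593 bp from 8086504 to 8190096 for a transcript of 563 bases, had 12 reads in WRR and a dash in XH. The next, 98306 bp from 12611440 to 12709745, was at 8.82 RPKM in WRR against 7.43 RPKM in XH, giving a ratio of 1.19 (0.80 to 1.79). The third, 40601 bp from 12890786 to 12931386, had 6.70 and 1.79 RPKM, a ratio of 3.73 (1.62 to 10.03). None of the 3 widest was thus higher in XH.

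Coverage, the percent of a transcript's length with reads, was lower in WRR. Its median was 80.8% (quartiles 53.9 and 92.3%) in WRR against 88.9% (75.8 and 95.3%) in XH. Over the table the medians were much the same, 79.9% and 89.5%. Coverage was higher in XH for 836 transcripts and higher in WRR for 526. It went with the level, with Spearman's rho between log2 RPKM and coverage of 0.86 in WRR and 0.78 in XH across transcripts. In the 604 transcripts at least 2-fold higher in XH, the median coverage was 56.6% in WRR and 92.3% in XH, with a median of 10 and 31 reads. In the 115 at least 2-fold higher in WRR it was 89.7% in WRR and 51.9% in XH, with 23 and 7 reads. In both directions the library with fewer reads also had the lower coverage. As these sets were chosen by level and coverage went with level, this is no separate evidence of a difference. At least 90% coverage in both libraries was reached by 254 transcripts, of which 76 were at least 2-fold higher in XH and 9 in WRR. Among all compared transcripts of the table, 46.9% and 9.45% were. Those of the table with like coverage were not counted.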

How the data were processed

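Breast muscle RNA of 1 pooled library per strain (4 hens each) was analysed. The file headers call the deposited counts unique reads, taken here as reads mapped to one place only. RPKM, as deposited, is scaled to totals in the file headers, 9442942 for WRR and 7714657 for XH. RPKM recomputed from reads, length and total matched all 1343 (WRR) and 1357 (XH) listed chromosome 5 values within 0.001%. The deposited coverage, given as a percent, was taken as that of transcript length, which the file headers do not spell out. The submitters' processing notes name galGal4, TopHat2 2.0.8 and Cufflinks 2.0.2 without roles. The sources used here do not say how transcripts were assembled and merged or by what test they were held non-coding. Starts were read as counted from 0. A dash was taken as 0 reads, since the smallest listed count was 1.

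Bins start at base 1, and a transcript belongs to the bin of its midpoint. Scripts used Python 3.11.15, pandas 2.3.3 and scipy 1.17.1, and were tested on simulated data; edgeR 4.0.16 (TMM) and DESeq2 1.42.0 gave scaling factors only. The members, classes and lists were chosen with earlier results of these data known. Transcripts were named as the 8 of highest mean RPKM, the 6 highest and 6 lowest ratios with at least 20 reads in the higher library, the 3 dashes per library with most reads in the other, the 3 longest transcripts and the 3 widest intervals; named bins are the 3 at each end of number and ratio and those of most summed RPKM. Neighbour gene lists were not run and no sequence is shown, as no galGal4 genome was used here. Without strand in the table, overlapping transcripts cannot be told apart from antisense partners.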

Additional observations from a re-analysis of the deposited data

How the results depend on the processing

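No paired analysis was possible because 1 pool stands for each strain, and no library could be left out. The median log2 ratio of chromosome 5, -0.86 as deposited, was -0.84 to -0.88 under 7 settings of filter, members and a pseudocount of 0.01. It was -0.70 with a pseudocount of 1, -0.54 scaled to listed reads, -0.0041 with TMM and -0.053 after quantile normalization. It turned to 0.033 with DESeq2 size factors and 0.057 relative to all transcripts; these scalings bring the table's median near 0 by construction. Within series A, B and C it was -0.58, -0.094 and -1.61. Towards WRR, the number past 2-fold, 115, was 299 centred, 285 with size factors, 275 with TMM, 267 after quantile normalization, 71 with a pseudocount of 1, 74 with at least 20 reads and 56 at 3-fold. The number higher in XH, 604, was 250, 258, 271 and 223 under the first 4 of these and 348 at 3-fold. Of the table's 21625 transcripts compared as deposited, the same 4 put 4813, 4679, 4538 and 4369 past 2-fold towards WRR. Towards XH they put 4396, 4601, 4796 and 4248. Bins with a median above 0, 3 of 52, numbered 6 of 74 at 0.5 Mb, 1 of 29 at 2 Mb, 1 of 43 with at least 10 transcripts, 5 with at least 20 reads, 11 scaled to listed reads, 22 centred within series, 28 with size factors or centred on all, 26 with TMM and 25 after quantile normalization. Density, 23.1 per Mb, was 21.8 with overlapping transcripts merged. The chromosome's share of listed reads, 4.32% (WRR) and 5.87% (XH), was 4.13% and 5.45% without gapped transcripts, and 6.10% and 6.60% without the table's 10 most read transcripts. It was 3.80% and 4.94% without the 2 most read of chromosome 5, a setting chosen after the data had been seen. In XH it was 5.95% with overlapping transcripts merged. The cause of changes not fixed by a setting's own construction was not tested. Depth limits single transcripts, with medians of 21 and 27 reads.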

Other observations

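Overlapping chromosome 5 transcripts of different series often lay on opposite sides of equality. Of 56 overlapping pairs in which both transcripts were compared, 7 were of the same series and 49 joined different series. This set is not identical to the 56 consecutive pairs counted as overlapping above, of which 8 were of the same series. Of the 49 pairs, 37 joined series B with series C. In 34 of the 37 the member of series B had the higher log2 ratio, and in 25 it was positive while that of series C was negative. The median log2 ratio was 0.60 for the members of series B and -1.96 for those of series C. Over all compared chromosome 5 transcripts of these series the medians were -0.094 and -1.61. Series B thus stood higher without regard to overlap, and the same counts for pairs that do not overlap were not computed. In the group at 26909267 to 26964180, the transcript at 26945804 to 26948012 (series B) had 19 reads in WRR and a dash in XH. The transcript at 26946296 to 26948295 (series C), which overlaps it, had 4 reads in WRR and 13 reads in XH. The table gives no strand, so whether such entries lie on the same strand was not tested.

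Consecutive chromosome 5 transcripts at least 100 kb apart had negatively correlated ratios. Over 150 such pairs Pearson's r of the log2 ratio was -0.31 and Spearman's rho was -0.26. Among the 9 other numbered chromosomes with at least 50 such pairs, r ran from -0.024 to 0.20 and rho from 0.0041 to 0.21. On chromosome 5, r was -0.31 over 77 pairs before 30 Mb and -0.31 over 73 pairs after it. With transcripts that have a dash left out, r was -0.20 over 150 pairs, and with series centred on their own medians it was -0.31. The pairs share transcripts and the same 2 libraries, the relation was noticed among several distances, and its difference from the other chromosomes was not tested.

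The 4 transcripts on scaffolds assigned to chromosome 5 had a median of 4.19 RPKM in WRR and 14.0 RPKM in XH, and 3 of them were at least 2-fold higher in XH.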
